A study of Mus musculus with 6 samples.

Results

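Chemokines, cytokines and the adhesion molecules that capture leukocytes were examined in the mouse aorta after a high fat diet. The list held 44 genes, and 42 of them had a probe set with a single gene symbol in the platform annotation, out of 12393 such genes in all. Where a gene had several probe sets, that of highest mean over 6 arrays was used, and 0 of the 42 chosen had a suffix (_s_at or _x_at) that marks probes shared by related transcripts. Nfkb1 was not analysed here, and neither was Ccl19, whose probe set carried several symbols. RNA came from C57BL/6J mice, an inbred strain that gains weight on such a diet. The first group, 3 arrays, came from mice kept on the high fat diet for 16 to 18 weeks, beginning at 10 weeks of age in replicates 2 and 3. High fat replicate 1 was labelled as 16 to 20 weeks old, with no sex stated, and since this leaves little time before such a diet, it is unclear whether it is the age at collection. The second group, 3 arrays, came from male mice on regular chow, aged 26 to 28 weeks in replicates 2 and 3 and of unstated age in replicate 1. The other high fat mice were male. Every array carried a pool of 3 aortas described as cleared of adventitia and of the surrounding fat, although markers of both had high signals (given below). The pools were independent, so n = 3 pools per diet throughout.

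In an inflamed artery, endothelial cells display selectins, on which leukocytes roll, and the ligands Icam1 and Vcam1, to which leukocyte integrins bind firmly. Chemokines held on the vessel wall then direct the cells inward through G protein-coupled receptors such as Ccr2 and Cxcr4. Tumour necrosis factor, interleukin 1 and Toll-like receptor ligands switch on many of these genes through the transcription factor NF-κB, whereas interferons switch on Cxcl9 and Cxcl10 through STAT and IRF factors. The series asked which aortic genes differ between the diets, and these genes form the recruitment part of that question.

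The promoters were searched for motifs of NF-κB and of the interferon response. RefSeq promoter sequences (GRCm38.p6) were found for 34 of the 42 genes, and the 250 bases before each transcription start were searched on both strands. The NF-κB site was written as GGG and TTCC with any 3 bases between them, and it was present in the windows of 10 of the 34 genes (29.4%), against 5.31% of all 27025 genes with a window. The core of the interferon-stimulated response element was written as GAAA and GAAA with any 2 bases between them, and 3 of the 34 genes (8.82%), Cxcl10, Saa3 and Cxcl14, held it, against 3.46% of all genes. Per window, the shares over all 32851 windows were 4.65% and 2.98%. The 2 motifs did not overlap in any of these genes. Cxcl10 is shown in full because it held both motifs and because its log2 signal ranged most widely over the arrays among the 42 genes. The capitals mark, in order, the interferon element and 2 NF-κB matches (chr5:92348890-92349139, minus strand, printed 5′ to 3′ up to the start site).
Cxcl10: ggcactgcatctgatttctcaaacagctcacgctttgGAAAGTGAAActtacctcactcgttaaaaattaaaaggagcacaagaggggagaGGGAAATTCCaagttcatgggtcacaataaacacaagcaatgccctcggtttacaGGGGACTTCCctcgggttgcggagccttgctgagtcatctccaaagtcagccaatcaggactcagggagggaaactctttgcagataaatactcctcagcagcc
The next 4 stretches of 30 bases are shown because they carry NF-κB matches in textbook targets of the factor, with the match in capitals. They lie at chr5:90891164-90891193 (plus strand), chr5:90903792-90903821 (plus strand), chr5:30013060-30013089 (plus strand) and chr12:55492657-55492686 (minus strand).
Cxcl1: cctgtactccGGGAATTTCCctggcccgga
Cxcl2: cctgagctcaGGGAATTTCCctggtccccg
Il6: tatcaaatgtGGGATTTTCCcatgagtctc
Nfkbia: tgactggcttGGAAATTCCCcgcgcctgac
Cxcl1 and Cxcl2 carried the same letters in the match, and in both a second match on the other strand was shifted by 1 base. A further match, not shown, began 89 bases before the start site in Cxcl1 and 78 bases before it in Cxcl2. The Nfkbia match lay on the strand opposite to the gene. A match is a description of the letters and not of binding, and sites outside the 250 bases or written otherwise were not searched.

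No member passed the test between the diets. Of the 42 genes, 27 exceeded the filter on low signals, a mean log2 value that corresponds to a signal of 40.7, and 0 of the 27 had an adjusted p under 0.05 in limma, where 10 of 13575 probe sets (0.0737%) did. At an unadjusted p under 0.05 there was 1 member, the CC chemokine Ccl8, or 3.7% of the 27, against 7.03% of all probe sets tested. The 3 high fat arrays lay above the 3 chow arrays for 2 members, Ccl8 and Ptgs2, and lay below them for 0, which is 7.41% of the 27 against 12.3% of all probe sets, 6.26% above and 6.08% below. As scaled, 16 of the 27 (59.3%) had a higher mean log2 value on high fat diet and 11 a lower one, the measure behind every count of higher and lower means given here, where 48.2% of all probe sets were higher. With equal array medians the split was 10 higher and 17 lower. Their median log2 fold change was 0.01, and the median over all probe sets was -0.01. The log2 fold changes ran from -0.79 for Il1r1 to 0.72 for Ccl8, and those of 24 genes were smaller than 0.5 in size. For 23 of the 27, the 95% interval lay within a log2 fold change of 1 in either direction, so that a doubling or halving was outside it. All fold changes are high fat diet over chow on the log2(signal + 6) scale, which understates the change of low signals.

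**Figure D1:**
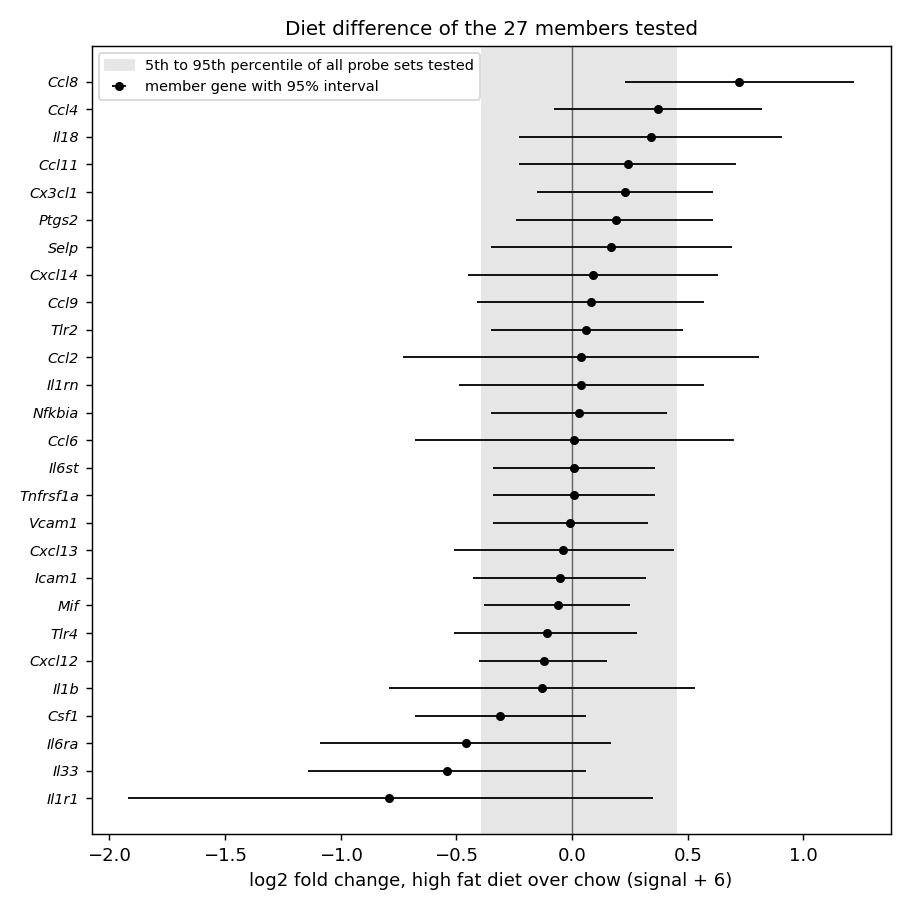
Log2 fold change of each of the 27 members tested (horizontal axis, high fat diet over chow), sorted by size, with 95% intervals from limma. Points are genes, and the grey band spans the 5th to 95th percentile of all probe sets tested, -0.39 to 0.45. The interval of Ccl8, 0.23 to 1.22, is the one that does not include 0.

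**Figure D2:**
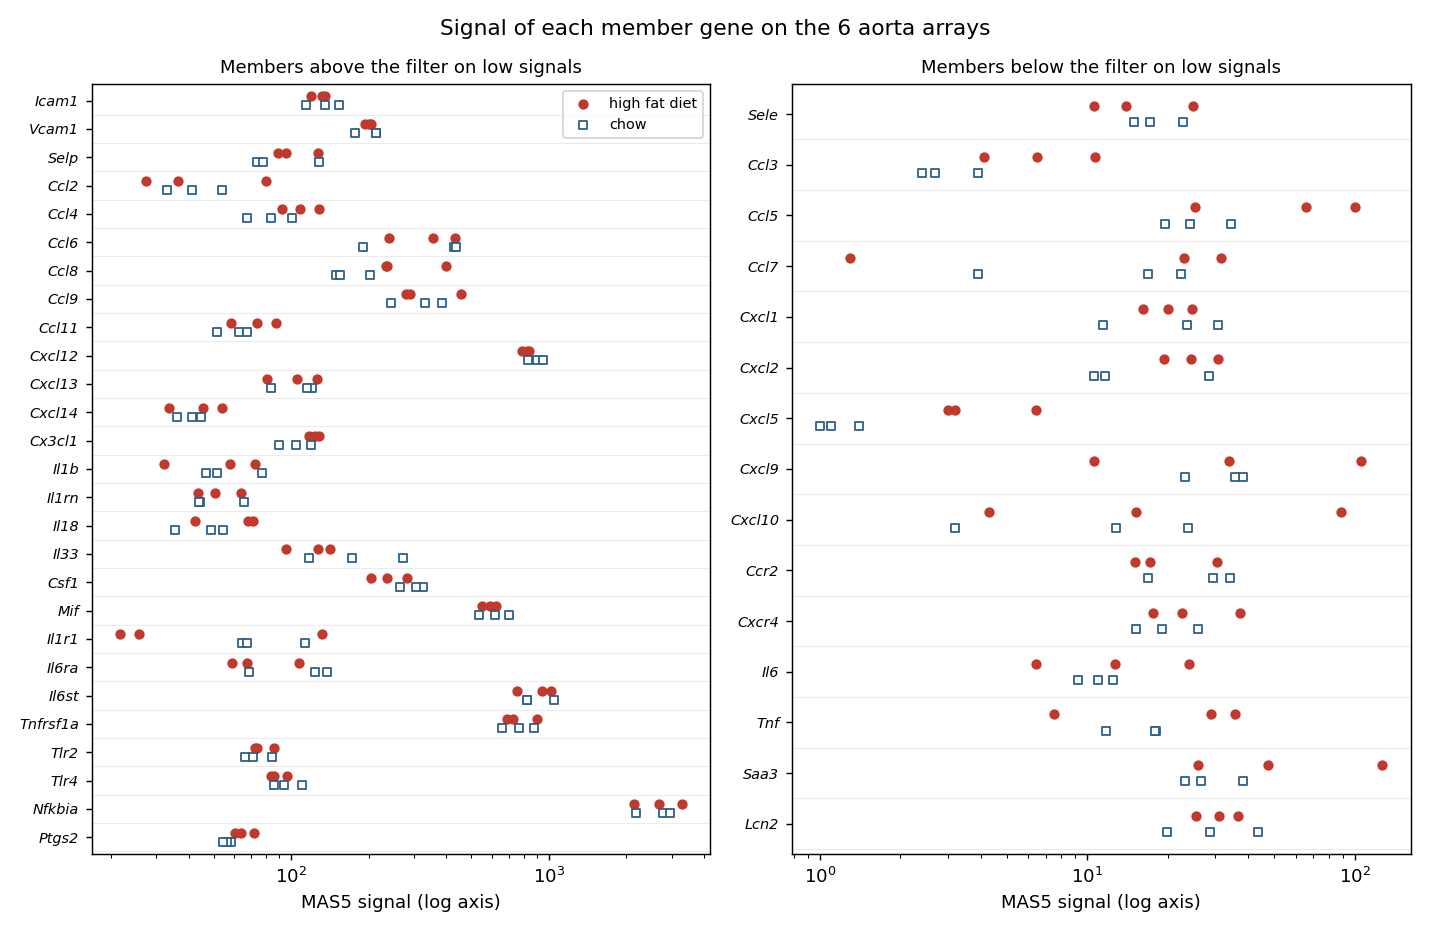
Signal of each of the 42 members on each array (horizontal log axis, MAS5 signal), with 27 members above the filter on the left and 15 below it on the right. Filled circles are the 3 high fat arrays and open squares the 3 chow arrays. Levels of different genes come from different probes and are not to be compared. The diets are interleaved for most genes, and Ccl8, Ptgs2, Ccl3 and Cxcl5 are the genes with no overlap.

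The adhesion molecules did not differ detectably. Vcam1, which binds integrin α4β1 on monocytes and lymphocytes, had signals of 204.7, 194.0 and 200.1 on the high fat arrays, against 213.9, 176.6 and 212.8 on the chow arrays. This gave a log2 fold change of -0.01 with a 95% interval of -0.34 to 0.33. Its other 2 probe sets, at means of 143.5 and 120.4 on high fat diet, had log2 fold changes of -0.04 and -0.06. Icam1, the ligand of the β2 integrins, had 119.1, 131.8 and 135.0 on high fat diet, against 114.3, 135.3 and 153.7 on chow, with an interval of -0.43 to 0.32. For these 2 genes the high fat arrays lay within the wider range of the chow arrays. Selp, the selectin stored in endothelial and platelet granules, was the adhesion gene of smallest p, at 95.7, 126.6 and 88.9 on high fat diet against 73.7, 77.7 and 128.7 on chow. Its log2 fold change was 0.17 ± 0.24 (SE, adjusted p = 0.902). Leaving out 1 array moved it between 0.03, reached without chow replicate 1 and also without high fat replicate 2, and 0.41, reached when chow replicate 3 was left out. A second Selp probe set, below the filter, read 14.9, 22.1 and 24.3 on high fat diet and 3.4, 1.3 and 9.8 on chow, so that the diets did not overlap there. Sele, the selectin induced on activated endothelium, lay below the filter, at 10.6 to 24.8 on high fat diet and 14.9 to 22.8 on chow.

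Among other genes of leukocyte adhesion, a list of 19 symbols of which 13 were tested, 0 passed and 1 had an unadjusted p under 0.05, where 7.03% of all probe sets did. This was Icam2, a β2 integrin ligand present on resting endothelium, at 118.6, 123.1 and 113.7 on high fat diet against 60.3, 83.9 and 87.3 on chow. The fold change on the log2 scale was 0.60 ± 0.19 (adjusted p = 0.531), and the diets did not overlap. Selplg, the ligand of P-selectin on leukocytes, came next with 0.38 (adjusted p = 0.811). Endothelial markers stood beside this: 10 of 12 tested had higher means on high fat diet, and the summed signal of the 13 markers was 2101.6 to 2567.6 on high fat diet and 1965.7 to 2110.8 on chow. Their part in the Icam2 values was not tested. In pooled tissue, more cells of a type and more RNA per cell cannot be told apart.

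The CC chemokines, which attract monocytes, T cells and eosinophils, held the member of smallest p. Ccl8, a monocyte-attracting protein that in the mouse acts through Ccr8, had signals of 236.3, 398.5 and 232.8 on high fat diet, against 148.6, 202.5 and 154.8 on chow. High fat replicate 2 was the highest array, and the lowest high fat array stood above the highest chow array. Its log2 fold change was 0.72 ± 0.22 (SE, adjusted p = 0.515). An exact permutation test of 3 pools against 3 cannot give a two-sided p below 0.1. Without high fat replicate 2 the log2 fold change was 0.48. All 6 CC chemokines tested had log2 fold changes above 0 as scaled, where 48.2% of all probe sets did. Their median was 0.16, and 0 passed. The lowest was 0.01 for Ccl6, whose mean signal was 341.6 on high fat diet and 351.5 on chow. A second Ccl9 probe set had a log2 fold change below 0, -0.17, and a second Ccl6 probe set had 0.06.

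Ccl4, an attractant of monocytes and T cells, had 108.6, 92.5 and 128.5 on high fat diet against 67.4, 83.6 and 100.3 on chow, a log2 fold change of 0.37 ± 0.20 (adjusted p = 0.752). Ccl11, or eotaxin, had 58.3, 73.4 and 86.9 against 62.6, 67.1 and 51.5 on chow. Ccl2, the ligand of Ccr2 and the chief attractant of inflammatory monocytes, had 36.3, 79.6 and 27.2 on high fat diet against 54.1, 32.9 and 41.3 on chow. The diets overlapped for these 3 genes, and the Ccl2 interval, -0.73 to 0.81, was among the wider ones. Ccl6 and Ccl9, mouse chemokines of myeloid cells, varied within each diet: Ccl6 had 238.8, 431.7 and 354.4 on high fat diet and 427.8, 189.2 and 437.5 on chow. Ccl9 had 290.2, 454.3 and 277.9 on high fat diet and 383.8, 244.1 and 330.7 on chow. Below the filter, Ccl3, which attracts monocytes and T cells, had 4.1, 10.7 and 6.5 on high fat diet against 2.4, 2.7 and 3.9 on chow, which did not overlap but could not be told from background here. Ccl7, which shares Ccr2 with Ccl2, ranged from 1.3 to 31.6 on high fat diet and from 3.9 to 22.4 on chow.

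Macrophage markers had mostly higher means on high fat diet. Of 18 markers tested, 17 had higher means on high fat diet and 11 had an unadjusted p under 0.05 in that direction, where 3.92% of all probe sets did, with 0 past the adjusted threshold. The median log2 fold change was 0.55. The marker with a lower mean was Cd14, at -0.31, with its high fat arrays below all chow arrays. The summed signal of 21 macrophage markers was 4743.6 to 7711.4 on high fat diet and 3484.5 to 4584.2 on chow, highest in high fat replicate 2, the array on which Ccl8 was also highest. Cd68, a lysosomal protein of macrophages, had 76.7 to 123.9 on high fat diet and 52.4 to 78.7 on chow. How far the number of macrophages bears on Ccl8 was not tested. Ccr2, the receptor that brings monocytes into tissue, was below the filter at 15.1, 30.4 and 17.2 on high fat diet and 34.1, 16.8 and 29.5 on chow. Cxcr4, the receptor of Cxcl12, was there too, at 17.6, 37.2 and 22.5 against 25.9, 15.2 and 19.0 on chow. Of 21 other chemokine receptors, 8 were tested, 0 passed and 0 had an unadjusted p under 0.05 in limma, where 7.03% of all probe sets did. Cxcr3, the receptor of Cxcl9 and Cxcl10, and Ccrl2, a receptor-like chemokine-binding protein, had the smallest p, with log2 fold changes of 0.27 and 0.14 (adjusted p = 0.845 and adjusted p = 0.916).

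Cxcl12, the constitutive chemokine that retains Cxcr4-bearing cells, had 783.6, 824.4 and 838.5 on high fat diet against 897.8, 947.6 and 826.5 on chow. The log2 fold change was -0.12 with a 95% interval of -0.40 to 0.15, the narrowest of the 27. A second Cxcl12 probe set had 0.17. Cx3cl1, or fractalkine, a chemokine anchored to the endothelial membrane, had 127.8, 123.7 and 117.2 on high fat diet against 89.5, 119.3 and 104.5 on chow. Its log2 fold change was 0.23 ± 0.17 (adjusted p = 0.815), and the diets overlapped by 1 chow array. Cxcl13, which attracts B cells, had 80.7 to 126.3 on high fat diet and 83.7 to 120.3 on chow, and Cxcl14 had 33.4 to 53.8 on high fat diet and 35.9 to 44.8 on chow.

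The neutrophil attractants were all below the filter. Cxcl1 had 16.1, 24.7 and 20.1 on high fat diet against 23.5, 30.9 and 11.4 on chow, and Cxcl2 had 24.4, 30.7 and 19.3 against 10.6, 11.6 and 28.4 on chow. Cxcl5 had 3.0, 3.2 and 6.4 on high fat diet against 1.4, 1.1 and 1.0 on chow, which did not overlap but lie at the bottom of the scale. Neutrophil markers overlapped between the diets, with a summed signal over 8 genes of 294.1 to 413.8 on high fat diet and 238.0 to 452.1 on chow. Only 3 of the 8 genes were above the filter. Among those below it, the protease Elane had 11.4 to 32.3 on high fat diet and 8.4 to 11.8 on chow. The calgranulin S100a8, also below it, had 9.9 to 31.9 on high fat diet and 23.6 to 67.7 on chow. Of 17 other chemokine ligands, 3 were tested and 0 passed or had an unadjusted p under 0.05 in limma, where 7.03% of all probe sets did. Cxcl16, a membrane-bound chemokine and scavenger receptor, had 0.23, and Ccl27a, a skin chemokine, had -0.22.

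Chemokines that interferons induce were highest in 1 high fat pool. Cxcl10 had 4.3, 15.2 and 88.4 on high fat diet against 3.2, 23.8 and 12.8 on chow. Cxcl9 had 10.6, 33.7 and 105.7 on high fat diet against 38.1, 23.2 and 35.6 on chow. Both signals were highest in high fat replicate 3, and high fat replicate 1 lay within or below the chow range. Ccl5, or RANTES, which T cells, macrophages and platelets release, had 25.3, 65.9 and 100 on high fat diet against 34.3, 24.1 and 19.5 on chow. These 3 genes were below the filter and singled out after their values were seen.

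The mean of the interferon response genes was also highest on high fat replicate 3, although Oas2, Irf9, Bst2 and Irf1 were highest on high fat replicate 2. Of 16 such genes tested, 15 had higher means on high fat diet, and 0 passed the adjusted threshold. An unadjusted p under 0.05 in limma with a higher mean was reached by 5 of the 16, where 3.92% of all probe sets reached it. The 16 tested had mean log2 deviations of -0.38, 0.32 and 1.05 on high fat replicates 1, 2 and 3, against -0.36, -0.40 and -0.24 on chow replicates 1, 2 and 3. Irf7, the factor that amplifies type I interferon, had 120.4, 217.8 and 380.1 on high fat diet against 86.9, 59.6 and 84.2 on chow. Its log2 fold change was 1.44 ± 0.34 (SE, adjusted p = 0.353). The summed signal of 19 such genes was 1579.2 to 4749.2 on high fat diet and 1576.5 to 1863.8 on chow. For T cell markers, the summed signal over 9 genes was 389, 546 and 486 on high fat replicates 1, 2 and 3 and 398.7 to 417.6 on chow. Thy1 alone gave the largest part, 202.9, 298.5 and 290.8 on high fat diet and 207.7, 219.4 and 245.2 on chow. Only 2 of the 9 genes were above the filter. Cd3e, part of the T cell receptor complex, had 14.5 to 18.6 on high fat diet and 7.0 to 30.4 on chow. The part of interferon or of T cells in the Cxcl9, Cxcl10 and Ccl5 signals was not tested.

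**Figure D3:**
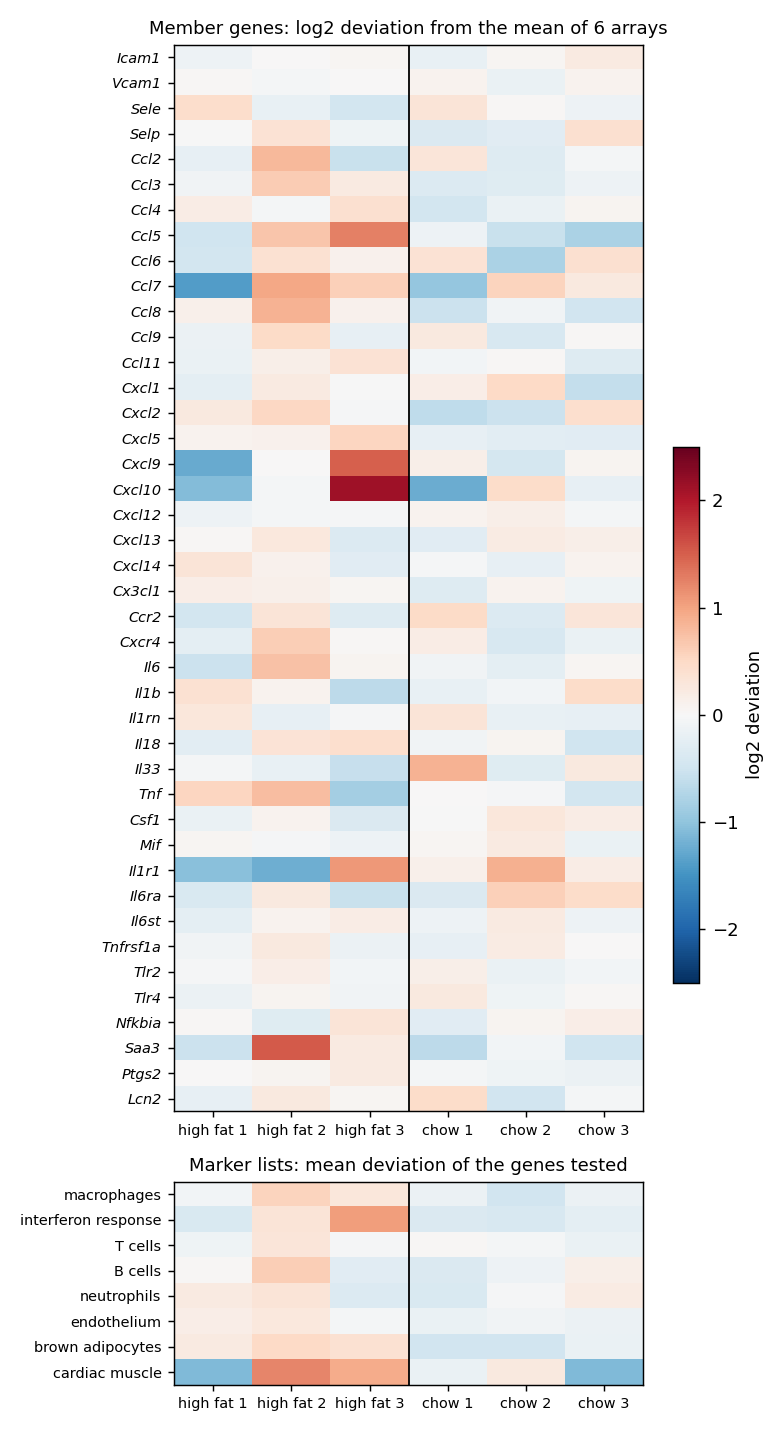
Upper map: log2 deviation of each member from its mean over the 6 arrays (colour, red above and blue below), with the high fat arrays on the left of the line and the chow arrays on the right. Lower map: the same averaged over the tested genes of each marker list. Cxcl9, Cxcl10 and the interferon response list are most red on high fat replicate 3, and Saa3 on high fat replicate 2.

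**Figure D4:**
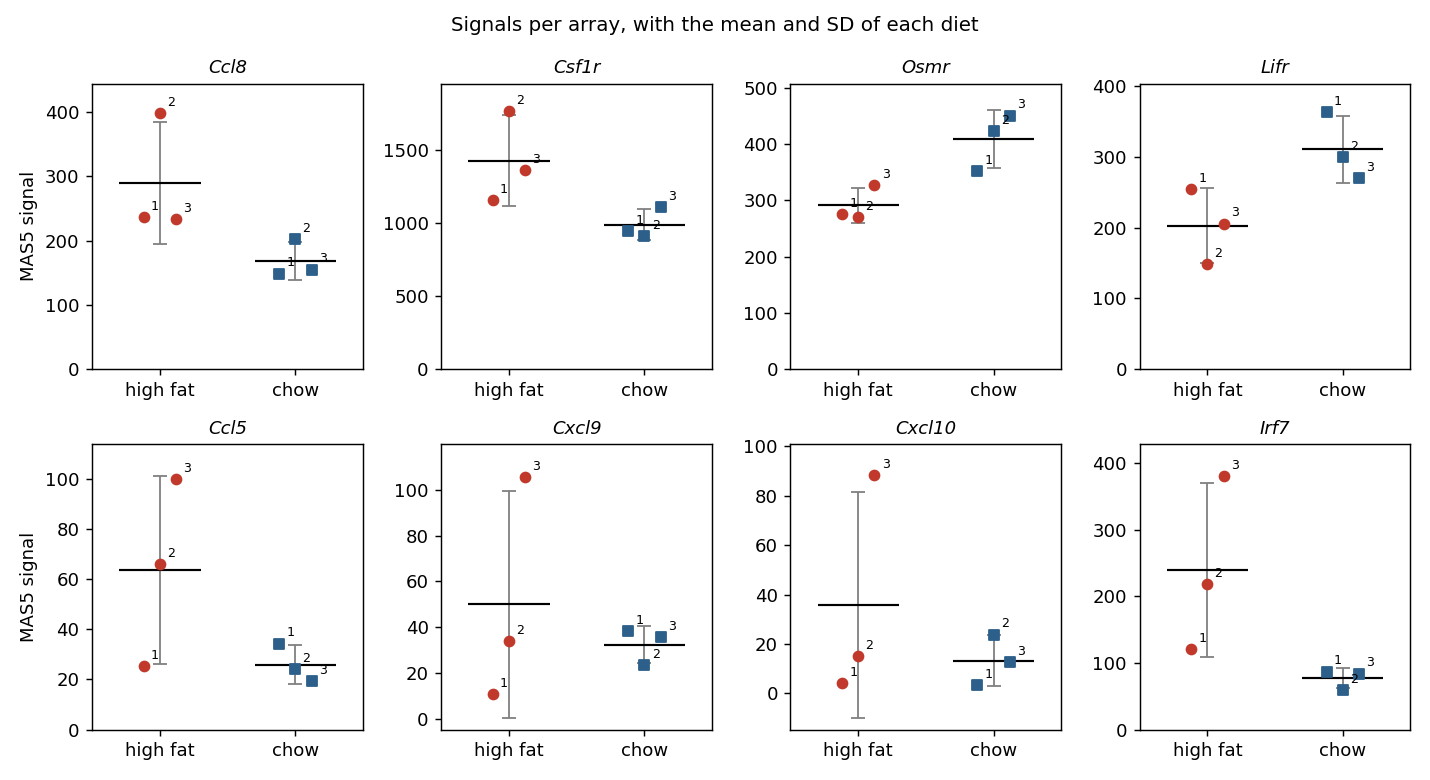
MAS5 signal (vertical axis) of 8 genes on each array, high fat diet left and chow right, with replicate numbers beside the points. Lines are means and bars are SDs (n = 3 each). Ccl8, Csf1r and Irf7 are higher on every high fat array than on any chow array, Osmr and Lifr are lower, and Ccl5, Cxcl9 and Cxcl10 are highest on high fat replicate 3.

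Of the 8 cytokines and growth factors, 6 were tested and 0 passed, and the diets overlapped for all 6. Il33, an alarmin held in the nuclei of stromal and epithelial cells and released on injury, had 141.2, 127.0 and 95.2 on high fat diet against 270.5, 117.0 and 172.8 on chow. Its log2 fold change was -0.54 ± 0.27 (SE, adjusted p = 0.744), and chow replicate 1 was the highest array. Without that array the log2 fold change was -0.24, and without chow replicate 2 it was -0.82. Il1b, the chief secreted form of interleukin 1, had 72.6, 57.9 and 32.2 on high fat diet against 46.8, 51.5 and 77.1 on chow. Il18, which inflammasomes also activate, had 42.4, 67.7 and 71.2 against 48.8, 54.3 and 35.3 on chow, a log2 fold change of 0.34. Il1rn, the receptor antagonist, had 43.6 to 63.8 on high fat diet and 44 to 65.4 on chow. Tnf and Il6, the textbook inflammatory cytokines, lay below the filter: Tnf had 28.9, 35.5 and 7.5 on high fat diet against 18.1, 17.9 and 11.7 on chow. Il6 had 6.4, 23.9 and 12.7 on high fat diet against 11, 9.2 and 12.5 on chow.

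Csf1, the growth factor on which macrophages depend, and its receptor Csf1r had opposite signs. Csf1 had 236.0, 280.8 and 203.8 on high fat diet against 264.1, 324.1 and 304.7 on chow, a log2 fold change of -0.31 ± 0.17 (adjusted p = 0.752). Its other 3 probe sets had -0.08, -0.04 and 0.32, and the mean of all 4 gave -0.03. Csf1r, which belongs to the macrophage list, had 1156.7, 1767.9 and 1362.9 on high fat diet against 943.7, 911.2 and 1108.9 on chow. On the log2 scale its fold change was 0.51 ± 0.17 (adjusted p = 0.540), and the diets did not overlap. Mif, a cytokine that many cell types store, had 551.8 to 622.7 on high fat diet and 536.8 to 699.6 on chow.

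Of the receptors, Il1r1, the signalling receptor of interleukin 1, spread most. It had 25.6, 21.6 and 131.8 on high fat diet against 64.5, 113.4 and 67.3 on chow, so that high fat replicates 1 and 2 were below every chow array and high fat replicate 3 above them all. The log2 fold change was -0.79 ± 0.51 (adjusted p = 0.798). Without high fat replicate 3 it was -1.53 (adjusted p = 0.26), without high fat replicate 1 it was -0.47, and without high fat replicate 2 it was -0.37. Tnfrsf1a, the main receptor of tumour necrosis factor, had 722.8, 901.1 and 689.2 on high fat diet against 657.6, 876.9 and 765.1 on chow, with an interval of -0.34 to 0.36. Tlr2, a receptor of bacterial lipoproteins, had 72.2 to 85.6 on high fat diet and 66.3 to 84.2 on chow. Tlr4, the receptor of lipopolysaccharide, had 83.1, 96.7 and 86.0 on high fat diet against 110.1, 85.7 and 93.9 on chow. A second Tlr4 probe set had 45.7, 62.5 and 57.0 on high fat diet, below all 3 chow arrays at 87.0, 83.1 and 69.8. Its log2 fold change was -0.50 (limma, unadjusted p = 0.0329, adjusted p = 0.664). This probe set was not the one of highest mean, so it is outside the counts over the 27 members.

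Receptors of interleukin 6 and related cytokines were measured as well, and 0 of them passed. Il6st, or gp130, the signalling chain that the family shares, had 749.1, 943.7 and 1021.5 on high fat diet against 820.3, 1047.9 and 823.4 on chow. Its log2 fold change was 0.01, with an interval of -0.34 to 0.36, and its other 2 probe sets had -0.25 and -0.18. Il6ra, the chain that binds interleukin 6, had 67.1, 107.4 and 58.9 on high fat diet against 68.5, 138.1 and 124.2 on chow, with -0.46 ± 0.29 (adjusted p = 0.786). The mean of its 2 probe sets gave -0.08. Among 18 other cytokine genes tested of 36 listed, 0 passed, while 2 higher and 2 lower had an unadjusted p under 0.05, against 3.92% higher and 3.11% lower over all probe sets. The higher ones were Csf1r, given above, and Ifngr1, a receptor chain of interferon gamma, with 0.62 ± 0.27 (adjusted p = 0.693) and overlapping diets. The lower ones were Osmr and Lifr. Osmr, the oncostatin M receptor, had 276.2, 270.5 and 326.6 on high fat diet against 351.7, 423.9 and 451.2 on chow, with -0.48 ± 0.16 (adjusted p = 0.549). Lifr, the leukemia inhibitory factor receptor, had 254.1, 148.8 and 205.6 against 363.2, 299.6 and 269.9 on chow, with -0.62 ± 0.21 (adjusted p = 0.549). The diets did not overlap for either gene, and the mean of all Lifr probe sets gave -0.15. Lifr was named, and set beside Il6ra and Osmr, after its values were seen, and no list of such receptors was tested.

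The feedback inhibitor of NF-κB did not differ detectably. Nfkbia, which encodes IκBα and which NF-κB induces, had 2684.5, 2143.2 and 3293.2 on high fat diet against 2177.5, 2781.1 and 2955.7 on chow, a log2 fold change of 0.03 with an interval of -0.35 to 0.41. Its other 3 probe sets had 0.05, 0.12 and 0.00. Of 22 NF-κB and Toll or interleukin 1 signalling genes tested, 0 passed, with 10 higher and 12 lower. An unadjusted p under 0.05 in limma was reached by 0 of the 22, where 7.03% of all probe sets reached it. Cd14, the co-receptor of Tlr4, had the smallest p, at 125.7, 146.4 and 126.9 on high fat diet, below all 3 chow arrays at 150.6, 157.3 and 193.3 (-0.31, adjusted p = 0.752). Ikbkg, the regulatory subunit of the IκB kinase, had 0.22 (adjusted p = 0.845). Of the 10 members with an NF-κB match in the promoter window, 6 were tested. Among these 6, 4 had higher and 2 lower means, with log2 fold changes from -0.79 to 0.08. The other 4, Cxcl1, Cxcl2, Cxcl10 and Il6, were below the filter, so no direction is given for the 10 as a set.

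Products that these pathways induce completed the list. Ptgs2, the inducible cyclooxygenase, had 60.4, 64.0 and 71.4 on high fat diet against 58.6, 56.3 and 54.4 on chow, and the diets did not overlap. The log2 fold change was 0.19 ± 0.19 (SE, adjusted p = 0.873). A second Ptgs2 probe set had the opposite sign, -0.25, at 62.6, 35.8 and 48.6 on high fat diet and 72.7, 60 and 45.2 on chow. Saa3, an acute phase protein that adipocytes and macrophages make in the mouse, was below the filter, at 26.0, 126.7 and 47.5 on high fat diet against 23.2, 38.3 and 26.6 on chow. High fat replicate 2 stood apart there. Lcn2, an iron-carrier binding protein of neutrophils and epithelia, was below the filter too, at 25.5, 36.5 and 31.1 on high fat diet against 43.4, 19.8 and 28.8 on chow.

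The 15 members below the filter, which were not tested, varied most with the array. High fat replicate 2 gave the highest of the 6 signals for 7 of the 15 and high fat replicate 3 for 4, against 1 for high fat replicate 1 and 2, 1 and 0 for chow replicates 1, 2 and 3. High fat replicate 2 also had the highest median signal over all probe sets, 66.6 against 58.4 to 63.9 on the other arrays. The same count over all probe sets below the filter was not made, so whether this pattern is particular to the members is not known. The median log2 deviation of the 15 members was -0.25, 0.52 and 0.06 on high fat replicates 1, 2 and 3 and -0.08, -0.26 and -0.13 on chow replicates 1, 2 and 3. Macrophage markers had mean log2 deviations of -0.07, 0.56 and 0.28 on high fat replicates 1, 2 and 3 and -0.14, -0.48 and -0.15 on the chow arrays in the same order. Those of cardiac muscle markers were -1.11, 1.22 and 0.92 on high fat diet and -0.17, 0.24 and -1.10 on chow, and the part of these cells in the low signals was not tested. For the 27 members tested, the median log2 deviation stayed between -0.07 and 0.08 on all 6 arrays.

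Array-wide measures set the limits of these values. The median signal was 58.4 to 66.6 and the 2% trimmed mean 150.0 to 150.1 on the 6 arrays, and the 3′ to 5′ ratio of the Gapdh control was 0.89 to 1.38. The same ratio for actin was 1.27 to 1.94, highest on high fat replicate 2, whose mean correlation with the other arrays was the lowest, 0.953 against 0.961 to 0.965. The part of RNA quality in its signals of Ccl8, macrophage markers and the low members was not tested. Smooth muscle markers, which define the aortic media, were all above the filter, with summed signals of 27906.5 to 28847.8 on high fat diet and 27301.1 to 33451.7 on chow. Cardiac muscle markers summed to 1062.2 to 7470.6 on high fat diet and 1003.0 to 3812.8 on chow, and brown adipocyte markers to 12720.5 to 15124.8 on high fat diet and 7584.4 to 9585.0 on chow. White adipocyte markers summed to 9367.8 to 10417.3 on high fat diet and 9739.6 to 12914.3 on chow. Markers of adventitial fibroblasts summed to 19776.0 to 20390.9 on high fat diet and 19534.5 to 22248.4 on chow. Fat and adventitial markers were thus present on every array, and their part in the member signals was not tested. Over the 5 lists of related pathway genes, 64 of 126 symbols were tested and 0 passed, with 3 higher and 2 lower at an unadjusted p under 0.05, near the 7.03% of all probe sets. With 6 arrays, precision is limited by their number.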

How the data were processed

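RNA from 6 pools of mouse aorta, 3 per diet, was labelled from 5 µg and read on Affymetrix arrays. The authors deposited signal intensity values on a linear scale, and MAS5 was named per the submitters' processing notes, for which the sources used here give neither version nor settings. Deposited scaling was not changed, and 64 control probe sets were left out of 22690. Genes were named from the platform annotation, in which 20380 of 22626 probe sets had a single symbol. Signals were transformed as log2(signal + 6). The 13575 probe sets whose mean on this scale exceeded the 40th percentile were fitted together with limma 3.58.1 in R 4.3.3 (lmFit, eBayes with a variance trend, two-sided). P-values were Benjamini-Hochberg adjusted over all of them at a threshold of 0.05. The fit was tested on simulated data. Without detection calls, a low signal cannot be told from background.

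The members, the lists and the tests were chosen with earlier results of these data known. Full values were given to members past the threshold, with an unadjusted p under 0.05 or with diets that did not overlap, and to the member of smallest p in each role group. Further members and Lifr were described in full, and Ifngr1 was named, after their values were seen. In each list of related genes the 2 of smallest p were named. Alternatives were pseudocounts of 1 and 20, equal array medians, quantile normalization, no filter or one at the 60th percentile, weighted arrays, a fit without the variance trend, a replicate block, averaged probe sets of each gene, and each array left out. The spread behind each p-value is that between pools of animals. Python 3.11.15, pandas 2.3.3 and matplotlib 3.10.9 made the tables and figures.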

Additional observations from a re-analysis of the deposited data

How the results depend on the processing

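The members past the adjusted threshold numbered 0 in limma in each of the 16 alternative settings, and 1 to 3 of them had an unadjusted p under 0.05. Ccl8 kept a positive log2 fold change in each setting, from 0.48 to 0.86, with adjusted p = 0.339 to adjusted p = 0.999. The probe sets past the threshold over the whole table, 10 as reported, became 6 with no filter, 6 with averaged probe sets of each gene, 5 with no variance trend and 5 with the replicate block, and 5 to 16 with 1 array left out. The count of 5 came without chow replicate 2 or without high fat replicate 2, and that of 16 without high fat replicate 1. The median log2 fold change of the members tested was -0.05 to 0.09 with 1 array left out and -0.03 to 0.06 in the other settings. With equal medians, members with higher means were 37% in place of 59.3%, while the median of all probe sets moved to -0.05. The Ptgs2 value was -0.03 with the mean of its probe sets, since the second one has the opposite sign. The causes of the other shifts were not tested. Arrays that share a replicate number had correlations of deviations of 0.034, 0.171 and -0.111, so that the numbers were not taken as pairs. High fat replicate 1 correlated best with chow replicate 3, and the block left 0 members past the threshold. Low signals limit what can be said of the 15 members below the filter.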
